A study of Cucurbita moschata with 6 samples.

Results

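Plastid carbon fixation enzymes were followed in stems of pumpkin (Cucurbita moschata) seedlings, in the hypocotyl that carries the cotyledons. The genes were taken from the deposited gene table by its annotation: those carrying the KEGG carbon fixation term with "chloroplast" or "ribulose" in the product name, and those named as Rubisco activase. This gave 53 of the 32205 genes in the table, 44 through the KEGG term and 9 activase genes through the name alone. The 2 groups are SR and SCK, with 3 libraries each of poly(A) RNA from seedlings whose cotyledons had opened. The labels spell out neither name. A treatment and a control are described for the series, and SCK is read here as the control because CK customarily marks one in agronomy. Seedlings of both groups grew at 28 °C during 14 h of light and at 18 °C during 10 h of darkness. Far-red light for 120 s is given as the treatment on all 6 samples. The labels therefore do not say whether, or how, the groups differed in light. No genotype beyond the species is given for either group. The labels do not tell whether the replicates were separate plants or cultures, and p-values therefore cover only the spread among these libraries, possibly a technical one.

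The Calvin-Benson cycle fixes CO2 in the chloroplast stroma. Rubisco joins CO2 to ribulose bisphosphate, a reductive phase turns the product into triose phosphate with ATP and NADPH, and a regenerative phase rebuilds the acceptor. Rubisco has plastid-encoded large and nuclear-encoded small subunits and is kept active by Rubisco activase, an ATPase that removes inhibitory sugar phosphates from its active sites. Green stems carry out this cycle alongside the leaves and cotyledons, and many of its nuclear genes respond to light.

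Deposited counts summed to between 63870714 and 72356397 in the SR libraries and between 52300725 and 67350441 in the SCK libraries. Levels are given as FPKM, a count per gene length and library size, and changes as log2 fold change of SR over SCK ± SE from edgeR's quasi-likelihood test. A gene is called when its Benjamini-Hochberg adjusted p over all 23509 tested genes is under 0.05. Over all tested genes the median log2 change came to 0.01 under edgeR's TMM scaling and to 0.14 under library totals alone. FPKM values carry no TMM scaling, so a log2 change tends to lie below what the FPKM beside it give. SCK replicate 3 lay unusually close to the mean of the other SCK libraries: its median absolute log2 deviation from that mean was 0.106 over all tested genes, against 0.168 to 0.226 for each of the other 5 libraries set against its own group. It was the middle SCK value in 57.7% of all tested genes and in 81.2% of the 48 tested carbon fixation genes. Without it edgeR called 0 genes of any kind, with 5558 genes below 0.05 before adjustment, and DESeq2 called 3637 genes. The origin of this was not tested.

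Of the 53 genes, 48 passed the filter on low values, which asked for 1 FPKM or more in 3 or more libraries. edgeR called 7 of them lower in SR, where 7.16% of all tested genes were called lower, and 2 higher, where 7.2% were called higher. The 7 were 4 Rubisco activase genes, a B subunit of glyceraldehyde-3-phosphate dehydrogenase, the NADP-dependent malate dehydrogenase and a pyruvate, phosphate dikinase. The 2 called higher were a fructose-1,6-bisphosphatase and another plastid malate dehydrogenase. As shares of the 48 these are 14.6% lower and 4.17% higher. DESeq2 called 14 lower (29.2%) and 3 higher (6.25%), beside 12.7% lower and 13% higher among all tested genes, and its calls held all 9 of edgeR. All 3 SR libraries lay below all 3 SCK libraries in 10 of the 48 (20.8%), against 12.7% of all tested genes, and above them in 8 (16.7%), against 27.9% of all tested genes. The median log2 change of the 48 was -0.39, with 35 negative and 13 positive values, and it was -0.06 without SCK replicate 1. With library totals in place of TMM scaling, edgeR called 2602 of all tested genes higher and 1155 lower, in place of 1692 higher and 1683 lower, and 3 of the 48 higher and 7 lower.

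**Figure D1:**
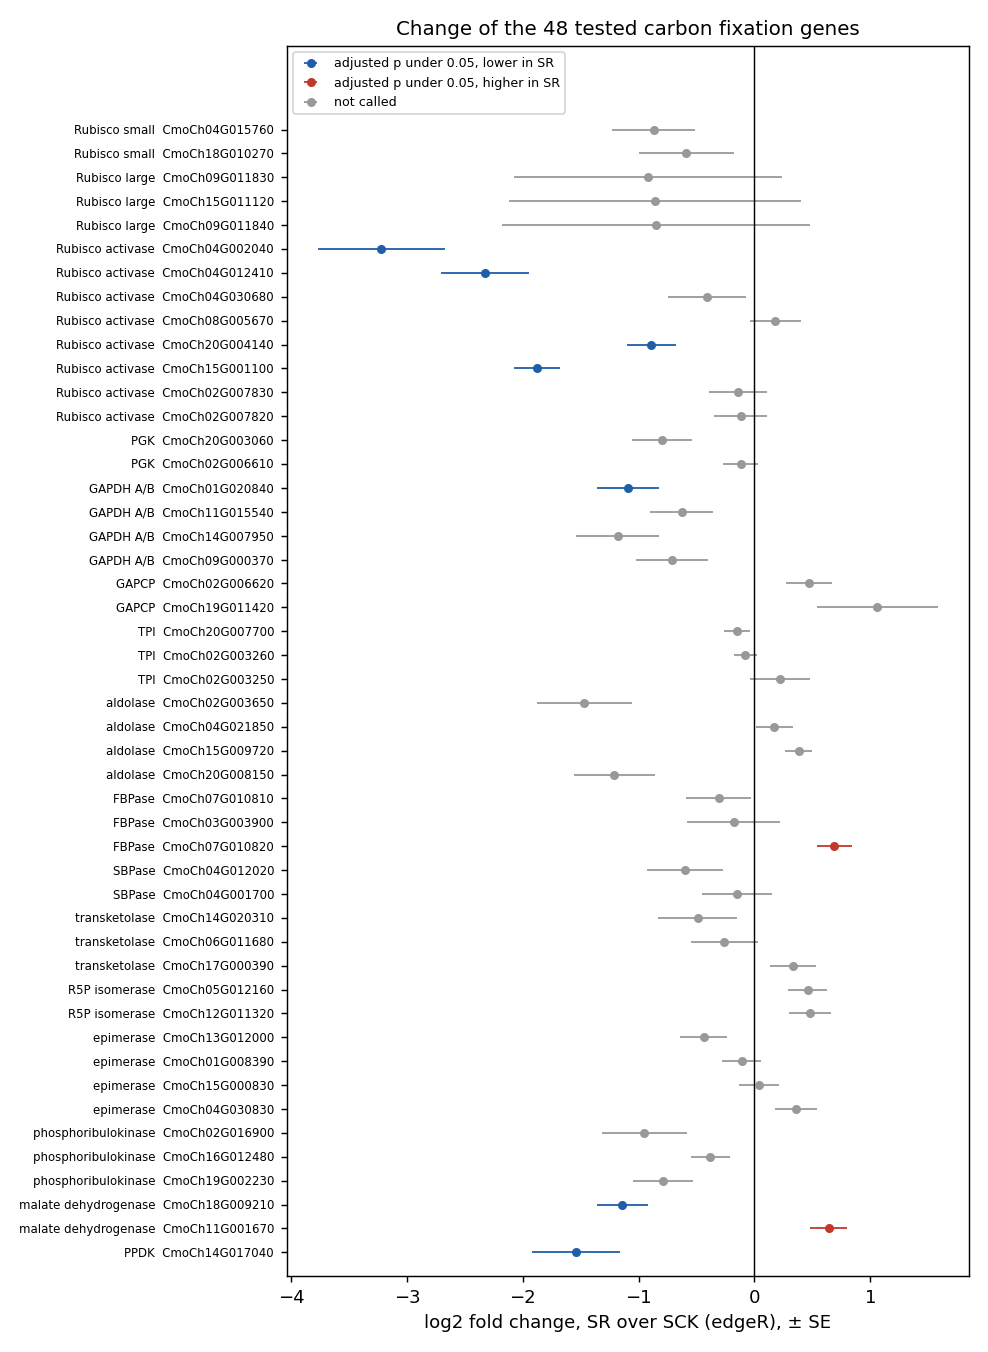
Log2 fold change of SR over SCK ± SE (x axis) for the 48 tested genes, ordered by enzyme (y axis). Blue points were called lower and red points higher at an adjusted p under 0.05 in edgeR; activase gene CmoCh04G002040 stands furthest to the left at -3.22, and the 2 red points are at 0.69 and 0.64.

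The Rubisco small subunit, encoded by 2 genes in the table, had the most abundant transcripts of the 53 genes. CmoCh04G015760, on chromosome 4 at 8052607-8054149 in the table's own coordinates, had 2487, 2642 and 2019 FPKM in SR replicates 1, 2 and 3, against 5728, 2307 and 3697 FPKM in SCK replicates 1, 2 and 3. The groups overlapped, because SCK replicate 2 lay below SR replicates 1 and 2. Means were 2383 ± 325 FPKM in SR and 3910 ± 1720 FPKM in SCK (SD, n = 3 each), a log2 change of -0.87 ± 0.36 that edgeR did not call (adjusted p = 0.144); DESeq2 called it (adjusted p = 0.0371). CmoCh18G010270, on chromosome 18, had 1545, 1107 and 1242 FPKM in SR and 2768, 916 and 1620 FPKM in SCK, a log2 change of -0.59 ± 0.41 with an adjusted p of 0.357 in edgeR. The first gene supplied 61.7% to 70.5% of the small subunit FPKM in SR and 67.4% to 71.6% in SCK.

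The large subunit is plastid-encoded, and 5 table entries carry its name although they are placed on chromosomes 9, 12 and 15. Of them, CmoCh09G011820 and CmoCh12G007370 had a count of 0 in all 6 libraries. CmoCh09G011830 had 9.81, 0.935 and 1.05 FPKM in SR and 15.7, 2.53 and 2.18 FPKM in SCK. CmoCh15G011120 had 10.0, 0.89 and 0.851 FPKM in SR and 15.9, 1.74 and 1.84 FPKM in SCK, and CmoCh09G011840 had 9.1, 0.781 and 0.717 FPKM in SR and 14.9, 1.33 and 1.26 FPKM in SCK. Replicate 1 stood above the other libraries in both groups, and the log2 changes of -0.92, -0.86 and -0.85 were not called (edgeR adjusted p = 0.62, 0.673 and 0.695) and turned positive without SCK replicate 1. In both groups replicate 1 also led in the 113 genes whose product is named as plastid-encoded. Their summed FPKM was 177, 67.4 and 81.4 in SR and 222, 68.1 and 81.6 in SCK. Of these 113, 18 were tested and 48 had a count of 0 in every library. The large subunit entries were not screened out of this sum. Plastid transcripts mostly lack the long poly(A) tails by which this RNA was selected. What these entries measure was not tested.

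The largest log2 falls of the 48 genes were in Rubisco activase. Of the 9 activase entries, 8 were tested and 4 fell, among them the 2 that are most abundant. Of all tested genes edgeR called 7.16% lower. CmoCh04G002040, on chromosome 4 at 1011634-1013634, had 218, 189 and 183 FPKM in SR, against 2898, 647 and 1384 FPKM in SCK. The SR libraries stayed within 183 to 218 FPKM, while the SCK libraries spread from 647 to 2898 FPKM and all lay above them. Means were 197 ± 18.4 FPKM in SR and 1643 ± 1148 FPKM in SCK (SD, n = 3 each), 8.35-fold lower in SR, and the log2 change was -3.22 ± 0.55 (edgeR adjusted p = 0.0178). Without SCK replicate 1 it was -2.48 (edgeR adjusted p = 0.0296). CmoCh04G012410, on the same chromosome at 6300835-6302566, had 102, 64.1 and 52.2 FPKM in SR and 465, 227 and 303 FPKM in SCK. Its groups did not overlap either, and its log2 change was -2.33 ± 0.38 (edgeR adjusted p = 0.0161).

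The other 2 activase genes that fell are of low abundance. CmoCh15G001100 had 2.37, 2.75 and 1.82 FPKM in SR and 6.19, 8.87 and 8.23 FPKM in SCK, with a log2 change of -1.88 ± 0.20 (edgeR adjusted p = 0.0104). CmoCh20G004140 had 5.67, 4.19 and 4.57 FPKM in SR and 9.49, 6.95 and 7.95 FPKM in SCK, with a log2 change of -0.89 ± 0.21 (edgeR adjusted p = 0.0361). In both genes every SR library lay below every SCK library, as in 12.7% of all tested genes. CmoCh15G001100 remained called in 5 of the 6 fits that left out 1 library each; the 2 abundant genes remained called in 4 and lost the call without SR replicate 3 (adjusted p = 0.0734 for CmoCh04G002040 and 0.0626 for CmoCh04G012410) and without SCK replicate 3 (0.0793 and 0.0778). CmoCh20G004140 remained called in 1 of the 6, without SR replicate 1.

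The 4 activase genes that did not pass the test had smaller changes. CmoCh04G030680 had 16.5, 26.2 and 13.4 FPKM in SR and 30.8, 14.4 and 21.5 FPKM in SCK (log2 change -0.41 ± 0.34, edgeR adjusted p = 0.442). CmoCh08G005670 had 10.7, 13.9 and 10.5 FPKM in SR and 11.6, 7.06 and 9.25 FPKM in SCK (0.18 ± 0.22, edgeR adjusted p = 0.605). The groups overlapped in both. CmoCh02G007830 had 7.27, 6.1 and 5.48 FPKM in SR and 5.8, 7.48 and 5.67 FPKM in SCK (-0.14 ± 0.25, edgeR adjusted p = 0.746). CmoCh02G007820 had 3.65, 2.83 and 3.04 FPKM in SR and 2.92, 3.42 and 3.11 FPKM in SCK (-0.12 ± 0.23, edgeR adjusted p = 0.757). These adjacent genes lie 52 bp apart on the same strand. The ninth entry, CmoCh04G012420, was under the filter, with deposited counts of 10, 0 and 0 in SR and 29, 36 and 37 in SCK; it lies on the strand opposite to CmoCh04G012410 and overlaps it by 849 bp, so its few counts cannot be told apart from that gene's where strand was not used. The table's GO terms place 4 of the 9 in the chloroplast stroma, among them CmoCh04G002040, CmoCh04G012410 and CmoCh20G004140, and CmoCh08G005670 in the thylakoid membrane.

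Summed over all activase entries, the level was 366, 309 and 274 FPKM in SR and 3431, 923 and 1743 FPKM in SCK. CmoCh04G002040 made up 59.5%, 61.2% and 66.8% of that sum in SR and 84.5%, 70.1% and 79.4% in SCK. The small subunit sum was 11, 12.1 and 11.9 times the activase sum in SR and 2.48, 3.49 and 3.05 times in SCK. The SR and SCK libraries did not overlap in this ratio, although they overlapped in the small subunit alone. This ratio and the others below were chosen after the values were seen and carry no test.

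**Figure D2:**
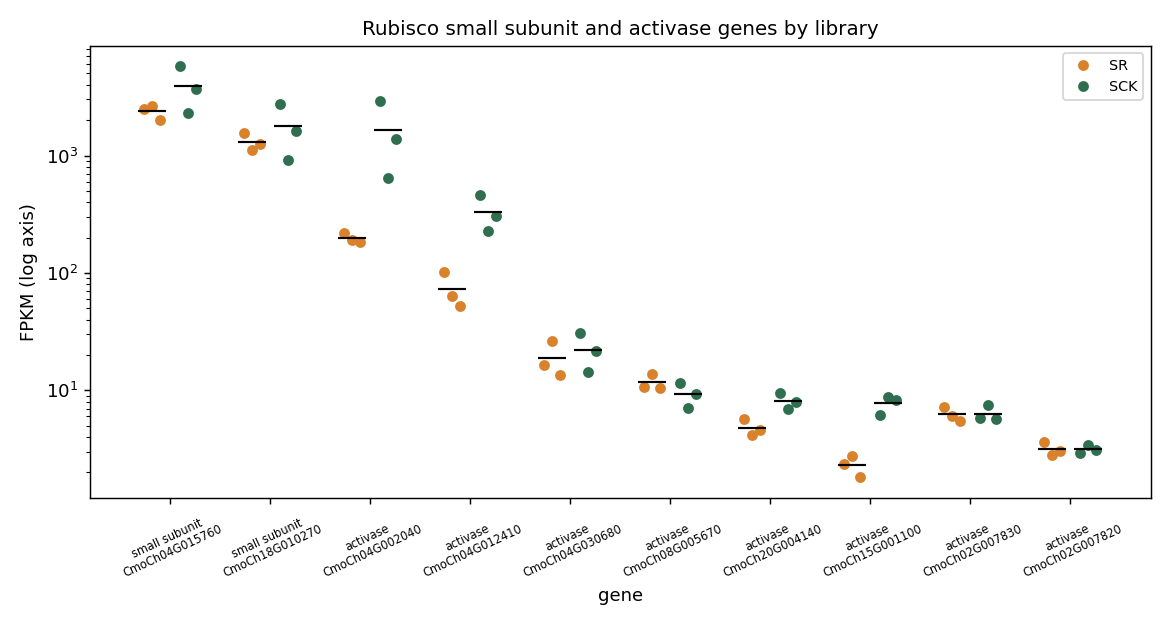
FPKM in each library (y axis, log scale) of the 2 small subunit genes and the 8 tested activase genes (x axis), with SR in orange and SCK in green, 1 point a library and a line at each group mean. The 2 most abundant activase genes lie at 52.2 to 218 FPKM in SR and 227 to 2898 FPKM in SCK, while the small subunit genes overlap.

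Fewer green cells and less transcript per cell cannot be told apart in these bulk samples. Chlorophyll a-b binding (antenna) genes, which mark green tissue, were 27 in the table, of which 24 were tested. In edgeR 10 fell and 0 rose, where 7.16% of all tested genes were called lower and 7.2% higher. An unadjusted p under 0.05 in edgeR was found for 19 antenna genes, and for 7832 of all 23509 tested genes. DESeq2 called 17 antenna genes lower and 0 higher, where it called 12.7% of all tested genes lower and 13% higher. The summed FPKM of the antenna genes was 5803, 4189 and 4850 in SR and 7688, 6532 and 6998 in SCK, so it differed less than the activase sum. The antenna sum was 15.9, 13.5 and 17.7 times the activase sum in SR and 2.24, 7.07 and 4.01 times in SCK. The antenna sum over the small subunit sum was 1.44, 1.12 and 1.49 in SR and 0.905, 2.03 and 1.32 in SCK, and the groups overlapped. The summed markers of xylem were higher in every SR library than in any SCK library. The edgeR calls in the tissue lists that follow stand beside the same 7.2% higher and 7.16% lower of all tested genes. The xylem list (10 of 17 tested, 3 called higher) summed to 67, 98.6 and 85.6 FPKM in SR and 43.4, 49.5 and 45 FPKM in SCK, and the phloem list (23 of 25 tested, 6 called higher) to 5688, 3299 and 3975 FPKM in SR and 3680, 3489 and 3754 FPKM in SCK. The SR and SCK libraries overlapped in the phloem sum. The shoot apex list (10 of 22 tested, 1 called higher) summed to 349, 258 and 389 FPKM in SR and 162, 258 and 232 FPKM in SCK, and the guard cell list (13 of 25, 2 called higher) to 120, 130 and 124 FPKM in SR and 118, 80.2 and 98.5 FPKM in SCK. In the guard cell list no SR library lay below an SCK library. The cotyledon reserve list (10 of 26, 2 higher and 1 lower) summed to 82 to 95.2 FPKM in SR and 84.3 to 92 FPKM in SCK, and the endodermis and root list (3 of 7 tested) to 47.5 to 48.5 FPKM in SR and 39.3 to 46.4 FPKM in SCK. Of the defining genes of the shoot apex, WUSCHEL was at or near 0 in all 6 libraries, while SHOOT MERISTEMLESS had 15.7, 16.7 and 17.1 FPKM in SR and 13.8, 13.2 and 13.6 FPKM in SCK. Of those of guard cells, SPEECHLESS and MUTE were at 0, and FAMA had 0.407, 0.924 and 0.944 FPKM in SR and 1.7, 0.472 and 0.813 FPKM in SCK. SHOOT MERISTEMLESS was thus detected in all 6 libraries, while FAMA stayed near the floor and passed 1 FPKM only in SCK replicate 1. The presence of apex or guard cell tissue was not tested. Of the genes that mark reserve-using cotyledons, isocitrate lyase did not exceed 2.34 FPKM, while malate synthase CmoCh13G008220 had 23.7, 17.3 and 19.3 FPKM in SR and 39.1, 30.5 and 36.2 FPKM in SCK, lower in every SR library than in any SCK library. The part of these tissues in the activase result was not tested.

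In the reductive phase, phosphoglycerate kinase adds the phosphate from ATP and glyceraldehyde-3-phosphate dehydrogenase (GAPDH) uses NADPH to reduce the product. The more abundant kinase, CmoCh20G003060, had 32.2, 28.6 and 24.0 FPKM in SR and 58.6, 31.0 and 43.8 FPKM in SCK, a log2 change of -0.80 ± 0.26 that was not called in edgeR (adjusted p = 0.0818); the other kinase had a log2 change of -0.12 ± 0.15 (adjusted p = 0.635 in edgeR). Of the 4 photosynthetic GAPDH genes, subunits A and B, 1 was called. CmoCh01G020840, a B subunit on chromosome 1 at 14494959-14497795, had 78.1, 68.2 and 57.2 FPKM in SR and 173, 93.3 and 126 FPKM in SCK. All SR libraries lay below all SCK libraries, and the log2 change was -1.09 ± 0.27 (edgeR adjusted p = 0.0393). It was called in 2 of the 6 fits with 1 library left out. The other 3 had log2 changes of -1.18 ± 0.36 (CmoCh14G007950, a subunit A, edgeR adjusted p = 0.0698), -0.71 ± 0.31 (CmoCh09G000370, a subunit B, 0.161) and -0.63 ± 0.27 (CmoCh11G015540, a subunit A, 0.152).

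The plastid GAPCP isoforms, which in Arabidopsis serve glycolysis in non-green plastids, had values in the other direction but were not called. CmoCh02G006620 had 31.1, 19.1 and 28.2 FPKM in SR and 16.7, 18.4 and 16.9 FPKM in SCK (log2 change 0.47 ± 0.20, edgeR adjusted p = 0.156), and CmoCh19G011420 had 3.79, 2.59 and 4.86 FPKM in SR and 0.538, 2.13 and 2.32 FPKM in SCK (1.06 ± 0.52, edgeR adjusted p = 0.205). The last, CmoCh11G020660, was under the filter at 1.41, 1.21 and 0.866 FPKM in SR and 0.321, 0.619 and 0.619 FPKM in SCK. The summed GAPDH A and B over summed GAPCP was 5.49, 8.87 and 4.9 in SR and 26.1, 10.3 and 15.7 in SCK, and the groups did not overlap.

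Triosephosphate isomerase interconverts the triose phosphates, and none of its 3 plastid genes was called in edgeR or DESeq2. CmoCh20G007700 had 51.2, 52.9 and 50.7 FPKM in SR and 55.7, 50.1 and 49.7 FPKM in SCK (log2 change -0.15 ± 0.11, edgeR adjusted p = 0.389), and the other 2 had log2 changes of -0.08 ± 0.10 and 0.22 ± 0.26. Fructose-bisphosphate aldolase condenses triose phosphates and is represented by 2 genes named aldolase 1 and 2 named aldolase 3. Aldolase 1 gene CmoCh02G003650 had 59.9, 47.4 and 38.4 FPKM in SR and 195, 66.7 and 103 FPKM in SCK. Its groups did not overlap, and the log2 change of -1.47 ± 0.41 fell short of the threshold in edgeR (adjusted p = 0.0564) and passed it in DESeq2 (0.00177). Aldolase 1 gene CmoCh20G008150 had a log2 change of -1.21 ± 0.35 (edgeR adjusted p = 0.0627). The aldolase 3 genes had log2 changes of 0.38 ± 0.12 (CmoCh15G009720, edgeR adjusted p = 0.0831) and 0.17 ± 0.16 (CmoCh04G021850, 0.513). Summed aldolase 1 over summed aldolase 3 was 0.572, 0.469 and 0.32 in SR and 2.52, 0.725 and 1.17 in SCK.

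Fructose-1,6-bisphosphatase (FBPase) removes a phosphate to give fructose-6-phosphate. CmoCh07G010820, on chromosome 7 at 5618332-5620999, had 7.36, 8.24 and 8.07 FPKM in SR and 4.89, 4.17 and 4.26 FPKM in SCK. It was 1.78-fold higher in SR by its means, 7.89 ± 0.469 FPKM in SR and 4.44 ± 0.395 FPKM in SCK (SD, n = 3 each), and rose with a log2 change of 0.69 ± 0.15 (edgeR adjusted p = 0.0323). It remained called in 1 of the 6 fits with 1 library left out. Its neighbour CmoCh07G010810, 1491 bp away on the same strand and more abundant, had 32.3, 28.3 and 24.8 FPKM in SR and 44.5, 22.0 and 29.4 FPKM in SCK (log2 change -0.31 ± 0.28, edgeR adjusted p = 0.473). The ratio of CmoCh07G010810 to CmoCh07G010820 was 4.4, 3.43 and 3.07 in SR and 9.09, 5.29 and 6.9 in SCK, without overlap. The remaining FBPase gene, CmoCh03G003900, had a log2 change of -0.18 ± 0.40 (edgeR adjusted p = 0.795).

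Sedoheptulose-1,7-bisphosphatase, transketolase, ribose-5-phosphate isomerase, ribulose-phosphate 3-epimerase and phosphoribulokinase, which also serve the regeneration of ribulose bisphosphate, had 14 tested genes. Of these 14 edgeR called 0, where it called 7.16% of all tested genes lower and 7.2% higher. An unadjusted p under 0.05 in edgeR was found for 4 of them, and for 7832 of all 23509 tested genes. DESeq2 called 2 lower, both phosphoribulokinases, where it called 12.7% of all tested genes lower. Sedoheptulose-1,7-bisphosphatase, which removes a phosphate from sedoheptulose bisphosphate, had log2 changes of -0.60 ± 0.33 for CmoCh04G012020 (8.57, 12.3 and 6.94 FPKM in SR and 17.6, 8.9 and 11.2 FPKM in SCK, edgeR adjusted p = 0.248) and -0.15 ± 0.30 for CmoCh04G001700. Transketolase, which moves carbon units between sugars, had -0.49 ± 0.34 for CmoCh14G020310 (31.5, 37.6 and 26.5 FPKM in SR and 59.9, 23.8 and 36.7 FPKM in SCK, edgeR adjusted p = 0.357), and -0.26 ± 0.29 and 0.33 ± 0.20 for the others. Ribose-5-phosphate isomerase was positive in both genes: CmoCh05G012160 had 24.1, 34.6 and 36.0 FPKM in SR and 21.8, 18.3 and 22.2 FPKM in SCK (0.46 ± 0.17, edgeR adjusted p = 0.116), and CmoCh12G011320 had a log2 change of 0.48 ± 0.18 (0.121). Ribulose-phosphate 3-epimerase was at -0.44 ± 0.20 for CmoCh13G012000 (54.0, 49.2 and 38.8 FPKM in SR and 68.5, 47.6 and 58.5 FPKM in SCK, edgeR adjusted p = 0.175) and -0.11 ± 0.17 for a second plastid gene; the other 2 entries, at 0.04 and 0.36, are annotated as cytoplasmic.

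Phosphoribulokinase makes the CO2 acceptor. CmoCh02G016900 had 45.6, 51.3 and 29.5 FPKM in SR and 109, 42.8 and 67.5 FPKM in SCK, and SCK replicate 2 lay within the range of SR. Its log2 change was -0.95 ± 0.37 (edgeR adjusted p = 0.127), and CmoCh19G002230 and CmoCh16G012480 had log2 changes of -0.79 ± 0.26 (0.0878) and -0.38 ± 0.17 (0.177). The last entry, CmoCh02G016890, stayed under the filter at no more than 0.401 FPKM in SR and 0.429 FPKM in SCK, and overlaps CmoCh02G016900 by 3285 bp on the opposite strand.

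The KEGG term also holds the plastid enzymes of C4-type carbon shuttling, which in C3 plants export reducing power or balance carboxylic acids. NADP-dependent malate dehydrogenase, CmoCh18G009210 on chromosome 18 at 10378726-10385134, uses NADPH to make malate. It had 78.5, 68.6 and 62.1 FPKM in SR and 176, 107 and 136 FPKM in SCK, and all SR libraries lay below all SCK libraries. It fell with a log2 change of -1.14 ± 0.22 (edgeR adjusted p = 0.0234) and was called in 3 of the 6 fits with 1 library left out. The other plastid malate dehydrogenase, CmoCh11G001670 on chromosome 11 at 820460-821698, had 21.3, 23.4 and 24.2 FPKM in SR and 10.1, 15.6 and 14.6 FPKM in SCK. It rose by a log2 change of 0.64 ± 0.16 (edgeR adjusted p = 0.0427) and was called in 0 of those 6 fits, at adjusted p between 0.0576 and 0.134; DESeq2 called it (adjusted p = 0.00595). The ratio of the NADP-dependent enzyme to it was 3.68, 2.93 and 2.56 in SR and 17.4, 6.86 and 9.28 in SCK. Pyruvate, phosphate dikinase, CmoCh14G017040 on chromosome 14, which makes phosphoenolpyruvate, had 4.8, 5.65 and 1.88 FPKM in SR and 9.13, 13.2 and 10.5 FPKM in SCK. It fell with a log2 change of -1.54 ± 0.38 (edgeR adjusted p = 0.0401), and was called in 1 of the 6 fits.

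**Figure D3:**
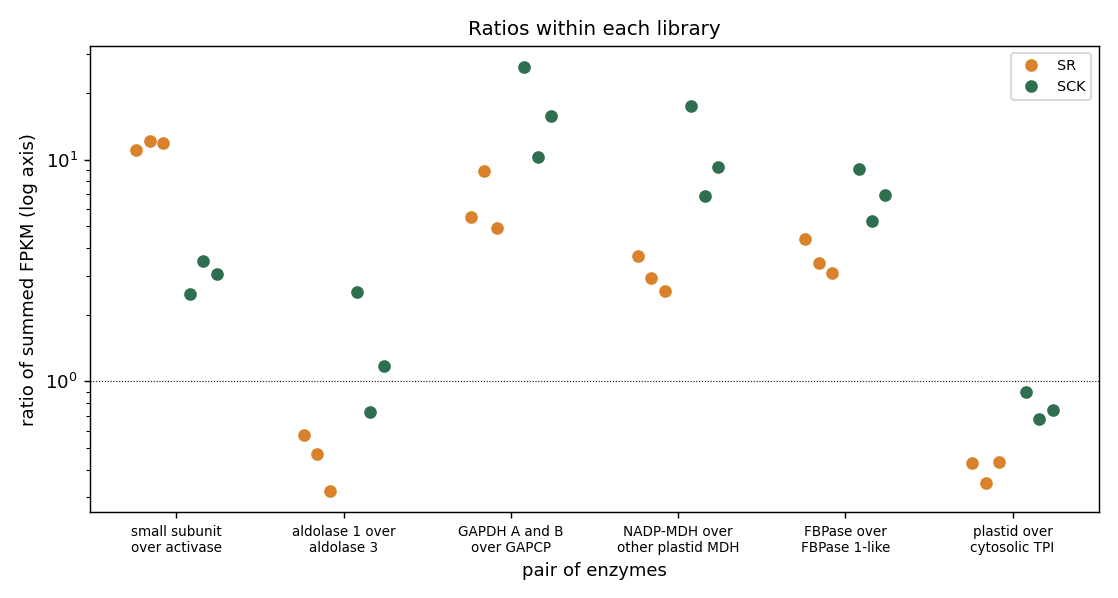
Ratio of summed FPKM of 6 pairs of enzymes in each library (y axis, log scale; dotted line at 1), with SR in orange and SCK in green. The small subunit over activase lies at 11 to 12.1 in SR and 2.48 to 3.49 in SCK, and in the other 5 pairs the SR libraries lie below the SCK libraries.

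The libraries of a group were ordered alike across most of these genes. SR replicate 3 was the lowest SR library in 32 of the 48 tested genes (66.7%), beside 28% of all tested genes. SCK replicate 1 was the highest SCK library in 34 of the 48 (70.8%), beside 32.7% of all tested genes. SCK replicate 2 was the lowest in 33 (68.8%, beside 31.5%), and SCK replicate 3 the middle one in 39 (81.2%, beside 57.7%). The median of the 48 genes, on log2(FPKM + 1) minus the mean of SCK, was 0.03, -0.04 and -0.37 in SR replicates 1, 2 and 3 and 0.34, -0.34 and -0.01 in SCK replicates 1, 2 and 3. The spread within SCK was as large as the change of many genes. In activase CmoCh04G002040 and CmoCh04G012410 all SR libraries lay below all SCK libraries, as in 12.7% of all tested genes. The SCK libraries of CmoCh04G002040 themselves ran from 647 to 2898 FPKM.

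**Figure D4:**
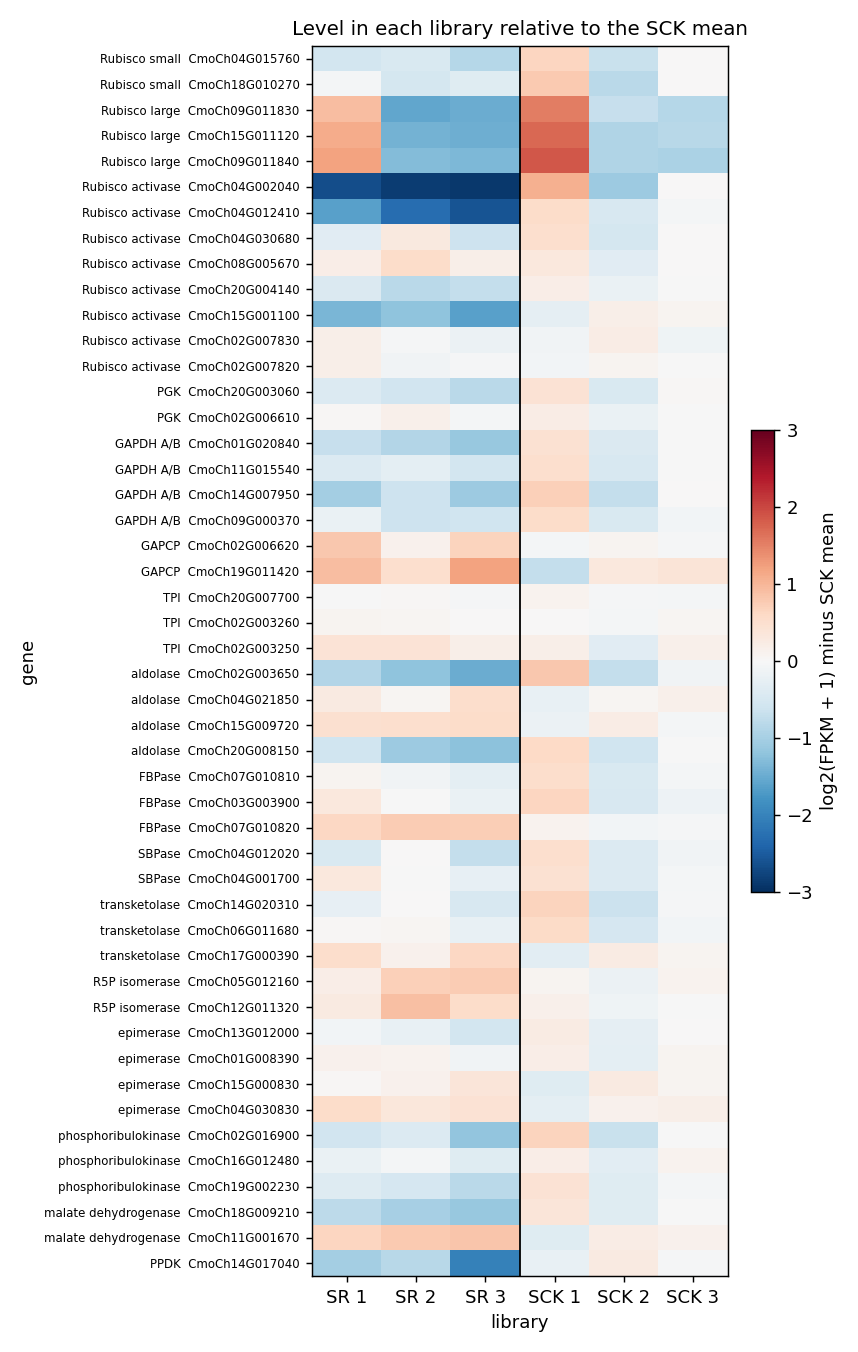
Level of the 48 tested genes (rows, by enzyme) in each library (columns, SR left of SCK), as log2(FPKM + 1) minus the mean of the SCK libraries; red is higher and blue lower. SCK replicate 1 is red and SCK replicate 2 blue in most rows, and activase CmoCh04G002040 and CmoCh04G012410 are the bluest rows in SR.

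Genes outside the rule with the same KEGG term, 84 in all and mostly of cytosolic, mitochondrial and C4-type enzymes, are set beside the plastid genes. Of 73 tested, 14 rose and 5 fell, where 7.2% of all tested genes were called higher and 7.16% lower. Their median log2 change was 0.25, beside -0.39 for the plastid genes. With library totals in place of TMM scaling 22 rose and 4 fell, beside 2602 and 1155 of all 23509 tested genes. The term also took in 4 SCAR-named actin regulators, and the list's most abundant entry was a phloem protein (CmoCh04G027740). Cytosolic triosephosphate isomerase CmoCh02G008030 had 191, 239 and 181 FPKM in SR and 85.6, 104 and 100 FPKM in SCK, and rose (log2 change 0.94 ± 0.13, edgeR adjusted p = 0.0128). Cytosolic aldolase CmoCh07G009000 rose (1.46 ± 0.20, 0.0128), as did mitochondrial malate dehydrogenase CmoCh16G004500 (1.08 ± 0.13, 0.0116) and malate dehydrogenase-like CmoCh14G022210 (1.39 ± 0.19, 0.0126). The other tested cytosolic aldolases of the list, picked after their values were seen, went both ways. CmoCh09G010370 fell, with 11.2, 15 and 9.52 FPKM in SR and 34.2, 16.5 and 23.7 FPKM in SCK (-1.21 ± 0.30, edgeR adjusted p = 0.0412). CmoCh01G010970 (-0.55 ± 0.26, 0.188) and CmoCh06G004510 (0.45 ± 0.13, 0.0613) were not called. A cytosolic FBPase outside the naming rule, CmoCh09G010870, fell, with 20.3, 31.2 and 12.8 FPKM in SR and 165, 57.4 and 91.4 FPKM in SCK (-2.45 ± 0.48, edgeR adjusted p = 0.0227); it was picked after its values were seen. Plastid over cytosolic triosephosphate isomerase was 0.428, 0.35 and 0.432 in SR and 0.893, 0.678 and 0.74 in SCK.

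Of the genes for Rubisco assembly, the regulatory protein CP12 and carbonic anhydrase, 47 were listed, 30 tested, 2 called higher and 4 lower. With library totals in place of TMM scaling 4 were called higher and 3 lower. Among all tested genes 7.2% were called higher and 7.16% lower, or 2602 and 1155 of 23509 with library totals. Of the list, 6 are gamma carbonic anhydrases, which belong to mitochondrial complex I. Plastid beta carbonic anhydrase 5, CmoCh12G001500, which interconverts CO2 and bicarbonate, had 44.2, 30.4 and 31.2 FPKM in SR and 98.7, 88.8 and 92.5 FPKM in SCK. It fell with a log2 change of -1.53 ± 0.19 (edgeR adjusted p = 0.0118), and its groups stood far apart. Carbonic anhydrase 2-like CmoCh04G018140 also fell (-0.86 ± 0.21, 0.0376). Other carbonic anhydrases, picked after their values were seen, went both ways. CmoCh14G006650, also 2-like, had the largest log2 fall of the list (-3.26 ± 0.79, edgeR adjusted p = 0.0382). Its means were 7.38 ± 1.75 FPKM in SR and 62.7 ± 56.6 FPKM in SCK (SD, n = 3 each). CmoCh11G016910 (-1.62 ± 0.45, 0.0555), CmoCh16G002950 (0.16 ± 0.22, 0.656) and CmoCh14G003070 (0.14 ± 0.23, 0.706) were not called. The chaperonin subunit alpha that binds the large subunit, CmoCh02G009090, rose slightly, with 31.4, 31.4 and 32 FPKM in SR and 22.2, 20.7 and 21.9 FPKM in SCK (0.41 ± 0.10, 0.0378), and gamma carbonic anhydrase 1 CmoCh16G006810 rose (0.92 ± 0.14, 0.0147). The most abundant of the list, CP12-2-like CmoCh14G009560, which binds GAPDH and phosphoribulokinase, had 243, 158 and 100 FPKM in SR and 279, 125 and 206 FPKM in SCK and was not called (-0.42 ± 0.41, edgeR adjusted p = 0.511).

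Photorespiration recovers carbon when Rubisco takes up oxygen. Of 42 listed genes 39 were tested, with a median log2 change of -0.29. Over all tested genes edgeR called 7.2% higher and 7.16% lower, or 2602 and 1155 of 23509 with library totals in place of TMM scaling. Of the 39 listed genes, 3 rose and 5 fell, or 5 rose and 2 fell with library totals. The 3 that rose with TMM scaling are all D-3-phosphoglycerate dehydrogenases, which open plastid serine synthesis and matched by name; CmoCh14G012580 had 26.9, 37.3 and 31.6 FPKM in SR and 1.11, 3.48 and 2.83 FPKM in SCK (3.56 ± 0.38, edgeR adjusted p = 0.0106), and CmoCh04G005090 had a log2 change of 0.61 ± 0.10 (0.0168). Serine-glyoxylate aminotransferase-like CmoCh10G009480, of the peroxisomal step, had 74.6, 108 and 73.6 FPKM in SR and 303, 256 and 284 FPKM in SCK and fell (-1.86 ± 0.18, edgeR adjusted p = 0.00942). Plastid glycerate kinase CmoCh08G006150, which returns glycerate to the cycle, fell too, with 5.33, 6.23 and 7.13 FPKM in SR and 44.9, 21.1 and 31.7 FPKM in SCK (-2.54 ± 0.30, edgeR adjusted p = 0.0113). The most abundant gene of the list, mitochondrial serine hydroxymethyltransferase CmoCh07G005910, had 212, 250 and 162 FPKM in SR and 381, 145 and 237 FPKM in SCK and was not called (-0.44 ± 0.37, 0.436).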

How the data were processed

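Counts and FPKM per gene and library were deposited by the authors in 1 table, per the file headers. HISAT and StringTie appear in the submitters' processing notes, with no version. Not given in the sources used here are the genome build, the use of strand and the treatment of reads that near-identical copies share, and close paralogs are uncertain for that reason. A further 6 value columns match no sample and were not used. In the deposited counts the value 4 occurred 1350 times, against 567 for 3 and 516 for 5. A read pair may thus stand for about 4 deposited counts, which was not settled; printed counts and totals would then overstate the depth, and the count tests would assume too little counting error at low counts. Deposited FPKM was 0.0001 where the count was 0.

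Genes that reached 1 FPKM in 3 or more of the 6 libraries were tested with edgeR 4.0.16 (TMM, glmQLFit, glmQLFTest; R 4.3.3) on the counts, with group as the only term. Standard errors were derived as the log2 fold change divided by the square root of F. DESeq2 1.42.0, limma 3.58.1 on log2(FPKM + 1) and log2(FPKM + 0.1), other scaling, no filter, a replicate term and leaving out each library were alternatives. The edgeR step was tested on simulated data with independent libraries. That test cannot speak to the calls lost without SCK replicate 3. Members and lists were chosen with earlier results of these data known. Named with values are called genes, the most abundant gene of each enzyme and every tested Rubisco and activase gene, and of other lists the most abundant and up to 4 called genes with the smallest adjusted p. Further genes of the other lists are marked as picked after their values were seen. No promoter or protein sequence was used here.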

Additional observations from a re-analysis of the deposited data

How the results depend on the processing

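Other scaling (RLE factors or library totals) kept the total called within 1.5 times in each list, but library totals moved the split between higher and lower, to 2602 higher and 1155 lower of all genes, 22 and 4 of the other carbon fixation genes, 4 and 3 of the assembly list and 5 and 2 of the photorespiration list. With DESeq2 the genes called were 14 of the carbon fixation enzymes lower, 6026 of all tested genes, 33 of the other carbon fixation genes, 10 of the assembly list and 18 of the photorespiration list, where edgeR called 7, 3375, 19, 6 and 8; limma with a pseudocount of 0.1 called 5 of the photorespiration list. Without the filter on low values 1 carbon fixation enzyme was called higher, in place of 2. The replicate numbers did not pair the samples over all tested genes (correlations of deviations -0.15, -0.25 and 0.09 for numbers 1, 2 and 3; 0.72, 0.14 and 0.77 over the 48 members), and with the replicate block edgeR called 0 genes, 0 carbon fixation enzymes among them, with 6564 and 20 at an unadjusted p under 0.05. Leaving out 1 library at a time, edgeR called 0 to 1 carbon fixation enzymes higher, 0 to 9 lower, 0 to 3437 of all genes, 0 to 14 of the other carbon fixation genes, 0 to 4 of the assembly list and 0 to 7 of the photorespiration list, and the members' median was -0.56 to -0.06. DESeq2 without SCK replicate 3 called 2, 10, 3637, 20, 6 and 10 of the same. The edgeR fit without SCK replicate 3 gave 0 in each of these, with 14 members at an unadjusted p under 0.05. With SR replicate 1 and SCK replicate 1 both left out, a choice made after the data were seen as was that DESeq2 fit, 1 enzyme was called higher. Without SCK replicate 1 the log2 changes of CmoCh09G011830, CmoCh15G011120, CmoCh09G011840 and CmoCh07G010810 were 0.67, 1.06, 1.38 and 0.04, none called, and their lowest with another library left out were -2.96, -3.10, -3.15 and -0.54. The change of CmoCh02G007820 ran from -0.27 to -0.02 with a library left out and was 0.01 without TMM scaling and with limma. The causes were not tested. With 3 libraries a group, the spread between libraries limits the precision.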
